A study of Arabidopsis thaliana with 20 samples.

Results

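These 100 Arabidopsis thaliana genes were represented by array probes that read high in every stem section taken from 3 cm below the tip downward. They were chosen by the measured values themselves. A probe annotated to a single gene and measured on all 20 arrays was kept when its mean log2 ratio over the reference was at least 1.5 in the 3-5 cm, the 5-7 cm and the 7-9 cm section. Before names were considered, 115 probes met this limit. The class III peroxidases, the TBL genes and 8 other named loci, 12 genes on 14 probes, were left out by name. The remaining 100 genes, on 101 probes, were drawn from 7779 genes on 8037 single-gene probes. The RefSeq table listed 97 of them as protein coding, AT2G27440 as a transcribed pseudogene and AT2G05820 as a pseudogene, and it did not hold AT1G03660. By locus code 48 lay on chromosome 1, 20 on chromosome 2, 14 on chromosome 3, 7 on chromosome 4 and 11 on chromosome 5, against 44.2%, 28.4%, 17.2%, 3.6% and 6.5% of the 7779 genes.

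The primary inflorescence stem of Arabidopsis grows from its tip, so distance below the tip orders tissue from young and dividing to old and no longer elongating. Cells stop elongating below the apical region, and xylem vessels and interfascicular fibres then lay down lignified secondary walls, while cortex and pith cells persist or empty. Older stem tissue is also known for the breakdown of protein and amino acids and for the movement of reserves. The 100 genes were described here by the known roles of their products, among which wall enzymes, protein kinases, transcription factors, proteases, amino acid breakdown enzymes, transporters and stress proteins were present.

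Plants of the accession Ler, for which the labels give no mutation or transgene, were raised for 8 weeks in days of 8 h light and were then moved to days of 16 h light. Stems near 5 cm were cut on day 12 after the move and stems near 10 cm on day 14, with flowers, siliques, leaves and side shoots taken off. The 10 cm stems gave the 0-3, 3-5, 5-7 and 7-9 cm sections, the 5 cm stems gave the 2-4 cm section, and the 0-2 cm section of the 5 cm stems was the reference on all 20 two-colour arrays. Each of the 5 sections was hybridised on 4 arrays, by the source names with the section in Cy5 on 2 and in Cy3 on 2. Stem length and harvest day therefore changed together, and the reference, at 0-2 cm, and the 2-4 cm section came from younger stems than the other 4 sections. The labels do not say whether replicates were separate plants or pools, so the p-values measured the spread between arrays, which may be technical. In whole sections, more RNA per cell and more cells of a type cannot be told apart.

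All values below are the deposited log ratios, read as log2 of the section over the reference. The base of the logarithm is not stated in the labels, so fold sizes rest on that reading, under which a value of 1 is a 2-fold difference. Values listed for a section run in the order of replicates 1 to 4, ± gives the SD over 4 arrays unless SE is named, and a gene was called when limma gave a Benjamini-Hochberg adjusted p under 0.05 over all 25720 tested probes. Array medians over all probes lay between -0.0334 and 0.038, and arrays of a section correlated with r from -0.21 to 0.551 in 0-3 cm and from 0.7445 to 0.8691 in 3-5 cm. The labels disagreed with each other on the stem of 3-5 cm replicate 1, placed by its title, and on the dye of 3 arrays (5-7 cm replicate 4, 7-9 cm replicates 2 and 4), set by their source name. Of the marker lists for stem cell types, none of the 7 xylem, 9 epidermis, 6 meristem, 7 floral or 3 fibre markers had a probe named here, and of 7 phloem markers 1 did, so the tissue label could not be checked through them. That gene, OPS (AT3G09070), a regulator of phloem differentiation, was called lower in all 3 lower sections, at -1.84 ± 0.19 (SE) in 3-5 cm, -3.88 ± 0.19 in 5-7 cm and -4.19 ± 0.19 in 7-9 cm.

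**Figure D1:**
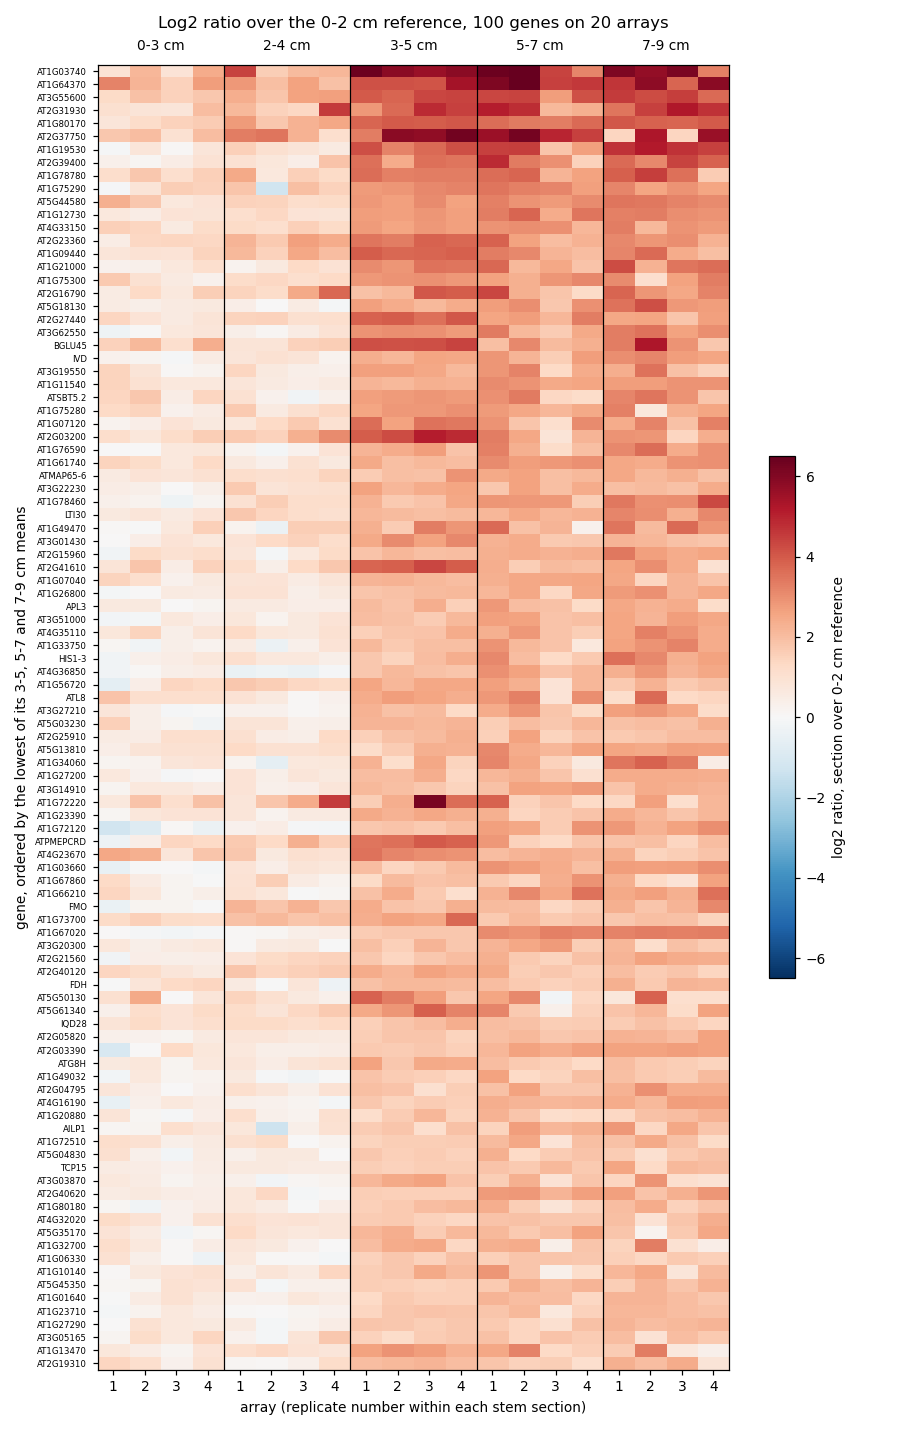
Heat map of the log2 ratio over the 0-2 cm reference for the 100 genes (one line each, ordered by the lowest of their 3-5, 5-7 and 7-9 cm means) on the 20 arrays (columns, grouped by section, numbered by replicate), with red above and blue below the reference on a scale that is symmetric about 0 and ends at 6.5. The 12 columns of the 3 lower sections are red for nearly all genes, as the choice of genes requires, and the 8 columns of 0-3 and 2-4 cm are paler.

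Over the 100 genes the median of the section means was 0.606 in 0-3 cm, 0.771 in 2-4 cm, 2.128 in 3-5 cm, 2.175 in 5-7 cm and 2.389 in 7-9 cm, as the heat map shows gene by gene. The last 3 medians were set in part by the limit of 1.5 and are a description. In those 3 sections all 100 genes were called, where 40.1%, 40% and 43.4% of all probes were called in either direction 19.9%, 19.7% and 21.7% were called higher and 20.2%, 20.2% and 21.7% lower, and nothing is read from that count because the limit used the same values. The lowest of the 3 means was at least 3 for 9 genes, between 2 and 3 for 28 and under 2 for 63. The genes just inside the limit were AT2G19310 at 1.5008, AT1G13470 at 1.5027, AT3G05165 at 1.5143 and AT1G27290 at 1.5188. Just outside it were TET8 (AT2G23810) at 1.4998, STZ (AT1G27730) at 1.4962, ATGP4 (AT4G24990) at 1.4935 and AT2G15640 at 1.4903. Membership depended on the scaling of the arrays, since with every array centred and scaled to one spread 63 genes met the limit, all among the 100. Of the 100, 82 met it whichever single array was left out, and 71 met it both on the Cy5 arrays alone and on the Cy3 arrays alone.

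A gene's value here is its probe's value, and 6 of the 100 genes had a second measured probe. For AT5G44580 the second probe read 2.45, 2.36 and 2.99 in 3-5, 5-7 and 7-9 cm and met the limit too. For AT5G35170, an adenylate kinase, the second probe read 0.42, 1.06 and 1.31, and for AT5G04830 it read 0.43, 0.71 and 0.70. For FDH, TCP15 and AT2G25910 the second probes stood apart from the first. They read 0.32, 0.26 and 0.32 for FDH, -0.21, -0.31 and -0.20 for TCP15, and 0.61, -0.13 and -0.48 for AT2G25910. Of the 6 second probes, 1 read at least 1 in all 3 lower sections. By limma, the 0-3 cm calls of AT5G44580, FDH and AT2G25910 were not met by the second probes (adjusted p = 0.181, 0.397 and 0.64). In 2-4 cm those of TCP15, AT2G25910 and AT5G35170 were not met (adjusted p = 0.583, 0.894 and 0.907), and that of AT5G44580 was (adjusted p = 0.0014). Statements on genes and counts of genes below hold for the probe that met the limit.

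The gene at the top was AT1G03740, which encodes a protein kinase. It read 6.39, 5.86, 5.61 and 5.87 in 3-5 cm, 6.36, 6.5, 4.37 and 3.16 in 5-7 cm and 6.05, 5.71, 6.1 and 3.26 in 7-9 cm. In 0-3 cm it read 0.96, 2.16, 0.9 and 2.42 and in 2-4 cm 4.4, 1.62, 2.07 and 2.15. The 4 arrays of 3-5 cm lay close together, whereas 5-7 cm replicates 3 and 4 and 7-9 cm replicate 4 lay well below the others of their sections, and 2-4 cm replicate 1 overlapped them. AT1G64370, whose product has no role given here, read 4.16, 4.12, 4.07 and 5.42 in 3-5 cm, 6.09, 6.5, 4.42 and 4.61 in 5-7 cm and 4.63, 5.79, 3.8 and 5.88 in 7-9 cm. It read 3.24, 2.21, 1.5 and 2.73 in 0-3 cm and 2.84, 1.94, 2.61 and 1.89 in 2-4 cm. Its 12 lower arrays all lay above its 8 upper ones, and it had the highest 0-3 cm mean of the 100 genes.

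Tight agreement between arrays was seen for AT1G80170, which encodes a pectin lyase-like protein of the polygalacturonase type, an enzyme class that cuts the pectin of walls. It read 3.77, 3.97, 3.91 and 4.05 in 3-5 cm, 3.62, 3.4, 3.3 and 3.69 in 5-7 cm and 4.02, 3.85, 3.8 and 3.99 in 7-9 cm, so that the 12 arrays spanned less than 1 log2 unit. AT3G55600 read 4, 3.79, 4.35 and 4.37, then 4.33, 4.4, 2.72 and 4.14, then 4.54, 4.24, 4.5 and 3.67 in the same 3 sections, with 5-7 cm replicate 3 low. AT5G44580 read 2.81, 2.65, 3.07 and 2.64, then 3.26, 2.9, 2.77 and 3.08, then 3.47, 3.45, 3.2 and 3.05. None of these 3 genes had a lower-section array below an upper-section array. AT1G12730, which encodes a subunit of the complex that attaches GPI anchors to proteins, read 2.71, 2.67, 2.87 and 2.67, then 3.33, 3.8, 2.4 and 3.48, then 3.28, 3.33, 3 and 2.91. Its 0-3 cm arrays, 0.71, 0.48, 0.9 and 0.82, and its 2-4 cm arrays, 1.09, 1.32, 0.91 and 0.86, lay below all of these.

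Other leading genes varied more between arrays of a section. AT2G37750 read 3.35, 5.89, 5.78 and 6.25 in 3-5 cm, 5.54, 6.2, 4.97 and 4.44 in 5-7 cm and 1.4, 5.25, 1.4 and 5.6 in 7-9 cm. By the source names its 7-9 cm arrays split by dye, with both Cy3 arrays at 1.4 and both Cy5 arrays above 5. The descriptions of both Cy5 arrays give Cy3, so the split rests on the source names. The dye term over all 20 arrays was not called for this gene. AT2G31930 read 2.84, 3.67, 4.85 and 4.42 in 3-5 cm, 5.09, 4.8, 2.12 and 2.3 in 5-7 cm and 3.46, 4.43, 5.2 and 4.69 in 7-9 cm, and AT1G19530 read 4.2, 3.25, 3.71 and 4.21, then 4.42, 4.5, 1.82 and 2.64, then 4.71, 5.18, 4.7 and 4.45. In both, 5-7 cm replicates 3 and 4 were the low arrays. AT2G39400, an alpha/beta hydrolase family gene, read 3.59, 2.39, 3.58 and 3.48, then 4.87, 3.4, 2.99 and 1.51, then 3.7, 3.15, 4.4 and 3.83. AT1G78780, of a pathogenesis-related protein family, read 3.65, 3.29, 3.31 and 3.31, then 3.64, 3.8, 2.23 and 2.6, then 3.9, 4.5, 3.6 and 1.66. AT1G75290, an isoflavone reductase-like gene, read 2.77, 2.86, 3.14 and 3.2, then 3.46, 3.3, 3.16 and 2.66, then 3.16, 2.58, 2.9 and 2.55, with little spread. Its 2-4 cm arrays read 1.8, -1.28, 1.94 and 1.48, so replicate 2 alone was below the reference.

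**Figure D2:**
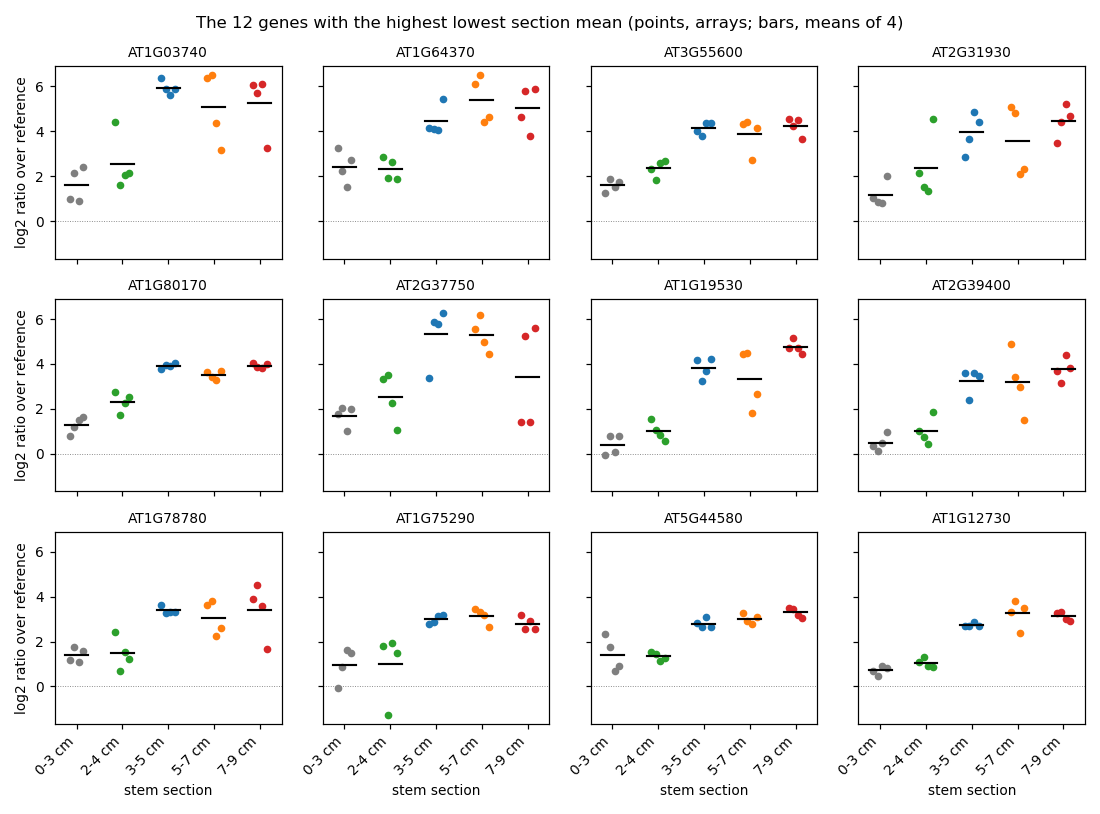
Log2 ratio over the 0-2 cm reference (y axis) by stem section (x axis) for the 12 genes with the highest lowest mean over 3-5, 5-7 and 7-9 cm, each point an array and each bar the mean of 4. AT1G80170 and AT5G44580 have tight groups in 3-5, 5-7 and 7-9 cm, and AT1G12730 has a wider group in 5-7 cm. AT1G03740 and AT2G37750 have scattered arrays in 5-7 or 7-9 cm. The 0-3 and 2-4 cm means are lower in all 12 panels, which the choice of genes set in part. Single arrays overlap in some panels, such as those of AT2G37750, AT2G31930 and AT1G78780.

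The question of whether these genes were already high nearer the tip was put to the 0-3 and 2-4 cm arrays, whose values had no part in the limit of 1.5. A probe did have to be measured on them, and all arrays share the reference section. In 0-3 cm, 38 of the 100 genes were called higher and none lower, where 2.18% of all probes were called higher, 1.29% lower and 3.47% in either direction. The median log2 difference over the 100 genes was 0.606, against -0.017 over all probes, and 96 genes were above 0. In 2-4 cm, 68 were called higher and none lower, where 6.63% of all probes were called higher, 6.89% lower and 13.5% in either direction. The median there was 0.771, against 0.005 over all probes, and 99 genes were above 0. A total of 32 genes were called in both sections, 36 in 2-4 cm alone, 6 in 0-3 cm alone and 26 in neither. Since both sections were set against the same reference section, a low reference value would raise both. The 0-3 cm count depended on single arrays, at 17 without replicate 4 and 22 without replicate 2, and the 2-4 cm count was 45 without replicate 1. With arrays centred and scaled to one spread the 0-3 cm calls were 63 higher and 1 lower, and with the 0-3 cm arrays fitted alone 65 higher and 1 lower.

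The 0-3 cm means ran from -0.59 to 2.42 and the 2-4 cm means from -0.29 to 2.56, and 23 and 38 genes respectively reached 1. AT1G64370 led in 0-3 cm at 2.42 ± 0.34 (SE, adjusted p = 0.000167), followed by AT4G23670, of the major latex protein family, at 1.86 ± 0.21 (adjusted p = 1.29e-05). BGLU45 (AT1G61810), an enzyme that releases lignin precursors from their glucosides, was at 1.77 ± 0.34 (adjusted p = 0.00397). AT4G23670 read 2.5, 2.32, 0.8 and 1.82 in 0-3 cm and 1.76, 0.61, 1.04 and 0.96 in 2-4 cm, and BGLU45 read 1.49, 2.11, 1.1 and 2.37 and 0.82, 0.83, 1.5 and 1.59, so for both the sections overlapped. In 2-4 cm the kinase gene AT1G03740 led at 2.56 ± 0.5 (SE, adjusted p = 0.00152). Its 0-3 cm mean of 1.61 ± 0.5 (SE) was not called (adjusted p = 0.0798), with arrays from 0.9 to 2.42. At the other end AT1G72120, a member of the NRT1/PTR transporter family, read -1.24, -0.86, 0.1 and -0.36 in 0-3 cm and 0.28, 0.48, -0.09 and -0.15 in 2-4 cm. AT4G36850, a membrane protein with PQ-loop repeats, read -0.45, -0.26, -0.36 and -0.1 in 2-4 cm, with all 4 arrays below the reference, and neither gene was called in either section.

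The 6 genes called in 0-3 cm but not in 2-4 cm were ATSBT5.2, ATL8, AT1G66210, FDH, AT2G19310 and AT1G27290. ATSBT5.2 (AT1G20160), a subtilisin-like protease, read 1.39, 1.73, 0.5 and 1.38 in 0-3 cm and 0.98, 0.29, -0.22 and 0.31 in 2-4 cm. ATL8 (AT1G76410), a RING-type ubiquitin ligase, read 1.85, 1.09, 1.1 and 1.09 and 0.95, 0.66, 0.09 and 0.28. In 0-3 cm, 3 of the 4 ATSBT5.2 arrays and all 4 ATL8 arrays lay above every 2-4 cm array, yet the difference between the sections was not called, at -0.91 ± 0.42 (SE, adjusted p = 0.607) for ATSBT5.2 and -0.79 ± 0.41 (adjusted p = 0.666) for ATL8. The other 4 had 0-3 cm means of 0.58 to 0.95.

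**Figure D3:**
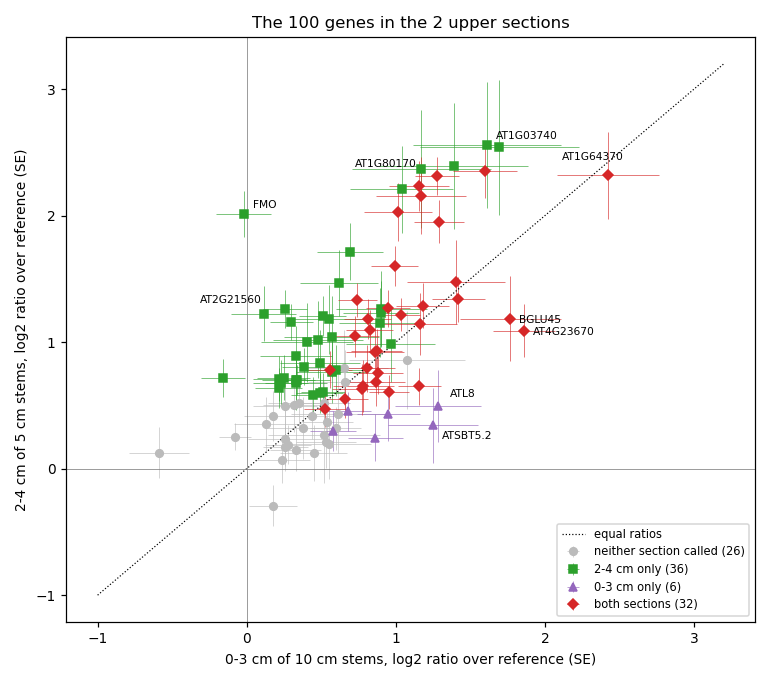
Mean log2 ratio over the reference in 0-3 cm of 10 cm stems (x axis) against 2-4 cm of 5 cm stems (y axis) for the 100 genes, with SE bars and the dotted line of equal ratios, and with marks showing in which of the sections limma called the gene. Most genes lie right of and above 0, 63 lie above the dotted line, and FMO stands apart near 0 in 0-3 cm and near 2 in 2-4 cm.

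Setting 2-4 cm against 0-3 cm uses no value that entered the limit. It removes the reference as far as all arrays were set against the same RNA, which was not checked here. Of the 100 genes, 3 were called higher in 2-4 cm and none lower, where 0.144% of all probes were called higher, 0.117% lower and 0.26% in either direction. The median difference was 0.183, against 0.01 over all probes, and 63 genes were above 0. FMO (AT1G12200), a flavin-containing monooxygenase, read -0.46, 0.18, 0.2 and -0.01 in 0-3 cm and 2.21, 1.83, 2.25 and 1.75 in 2-4 cm. The groups were far apart, by 2.03 ± 0.26 (SE, adjusted p = 0.000547), and the call held under all 20 alternatives, with values from 1.87 to 2.57. In the lower sections FMO had means of 2.08 ± 0.32, 1.77 ± 0.33 and 2.36 ± 0.56, so its 2-4 cm arrays already lay within the range of its lower-section arrays. AT1G80170 read 0.8, 1.18, 1.5 and 1.63 in 0-3 cm and 2.75, 1.73, 2.25 and 2.53 in 2-4 cm, a difference of 1.04 ± 0.21 (SE, adjusted p = 0.0361). AT2G21560 read -0.24, 0.46, 0.4 and 0.41 and 0.89, 1.26, 1.39 and 1.49, a difference of 1 ± 0.21 (SE, adjusted p = 0.0449). The groups did not overlap for either gene, but the calls were lost under 11 and 14 of the 20 alternatives. FMO was the only call left without replicate 1, 2 or 4 of 0-3 cm or without replicate 1, 3 or 4 of 2-4 cm. Both sections cover tissue from 2 to 3 cm below the tip but come from stems of different length and day. They were also scanned at different photomultiplier settings, 62 and 59 for all 2-4 cm arrays and 62 and 60 for all 0-3 cm arrays. Setting and section therefore cannot be told apart in this comparison.

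The step from the upper sections to 3-5 cm was large for most genes. For 90 genes the lowest 3-5 cm array lay above the highest 2-4 cm array, and for 94 it lay above the highest 0-3 cm array. For 53 genes all 12 arrays of the lower sections lay above all 8 arrays of the upper ones. These counts rest on the values that chose the genes and carry no test. The same counts over all probes were not made, so nothing is read from them. Means lay in the ascending order 0-3, 2-4 and 3-5 cm for 63 genes, and for 19 genes the 2-4 cm mean had come at least midway from 0 to the 3-5 cm mean on the log2 scale. The highest section mean was in 3-5 cm for 34 genes, in 5-7 cm for 19 and in 7-9 cm for 47.

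Within the lower stem the 3-5, 5-7 and 7-9 cm values all took part in choosing the genes, so their differences are given as a description, with no test. Over all 25720 probes limma called 2.43% higher and 3.47% lower in 5-7 than in 3-5 cm, or 5.9% in either direction, and the same threshold was passed by 5 of the 100 genes upward and 8 downward. For 7-9 against 3-5 cm the shares were 3.74% and 5.14%, or 8.88% in either direction, beside 12 and 7 of the 100. For 7-9 against 5-7 cm they were 0% and 0.00389%, or 0.00389% in either direction, beside none of the 100. Nothing is read from these counts, since they rest on the values that passed the limit of 1.5. The median difference over the 100 genes was -0.039 for 5-7 minus 3-5 cm, 0.144 for 7-9 minus 3-5 cm and 0.16 for 7-9 minus 5-7 cm. The 22 genes past the threshold in 5-7 or 7-9 cm against 3-5 cm, 10 of them in both, are described below by their array values. The threshold served there only to pick which genes to print, and passing it is not used as support for a difference.

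The lower sections were scanned at more than one setting, and the values differed between the arrays of each setting. In 5-7 cm the array medians over the 100 genes were 2.59 and 2.45 for replicates 1 and 2, scanned at photomultiplier settings of 62 and 60, and 1.85 and 1.97 for replicates 3 and 4, scanned at 63 and 60. For 49 of the 100 genes both arrays at 62 lay above both at 63, against 15.4% of all probes. In 7-9 cm the medians were 2.50 and 2.49 against 2.30 and 2.36, and 29 genes had both arrays at 62 above both at 63, against 14.3% of all probes. In 5-7 cm against 3-5 cm the median difference over the 100 genes was 0.303 with the arrays at 62 alone and -0.346 with those at 63 alone. In 7-9 cm against 3-5 cm it was 0.232 and 0.081. All 3-5 cm arrays were scanned at 62 and 61, so setting and section cannot be told apart in these comparisons. In 5-7 and 7-9 cm replicates 1 and 2 were scanned at 62 and replicates 3 and 4 at 63. Setting therefore cannot be told apart from replicate number or from anything that changed with it. The shares over all probes are no like background, since the 100 genes were all chosen for high ratios. The part of the setting in any single difference was not tested.

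Among the genes that read lower further down, AT2G03200, which encodes an aspartyl protease, showed the largest negative difference of the 100 in both sections. It read 3.94, 4.24, 5.11 and 4.85 in 3-5 cm, 3.33, 2.5, 0.84 and 2.19 in 5-7 cm and 2.94, 2.86, 1.4 and 2.35 in 7-9 cm, with no overlap between 3-5 cm and either lower section. The difference from 3-5 cm was -2.32 ± 0.43 (SE) in 5-7 cm and -2.15 ± 0.43 in 7-9 cm. ATPMEPCRD (AT2G43050), of the pectin methylesterase family that removes methyl groups from wall pectin, read 3.47, 3.56, 4.01 and 3.86 in 3-5 cm, 2.84, 1.5, 1.28 and 1.82 in 5-7 cm and 1.87, 1.94, 1.4 and 2 in 7-9 cm. Its differences were -1.86 ± 0.31 (SE) and -1.92 ± 0.31, and all 8 lower arrays were below all 4 of 3-5 cm. AT2G41610 read 3.76, 3.86, 4.36 and 3.95, then 2.38, 1.6, 2.07 and 1.93, then 2.56, 3.04, 2.4 and 0.97, a difference of -1.99 ± 0.35 (SE) in 5-7 cm. The pseudogene locus AT2G27440 read 3.84, 3.93, 3.56 and 4.05, then 2.59, 2.7, 2.15 and 3.31, then 2.54, 2.59, 1.8 and 2.69, a difference of -1.44 ± 0.21 (SE) in 7-9 cm.

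BGLU45 read 4.17, 4.14, 4.19 and 4.4 in 3-5 cm and 1.97, 3.1, 2.04 and 2.33 in 5-7 cm, which did not overlap, a difference of -1.87 ± 0.48 (SE). In 7-9 cm it read 3.34, 5.25, 2.9 and 1.74, a wide range on both sides of the 3-5 cm arrays. AT1G73700, a MATE efflux transporter, differed from 3-5 cm by -0.96 ± 0.24 (SE) in 5-7 cm and -1.04 ± 0.24 in 7-9 cm. Its 3-5 cm arrays read 2.36, 2.61, 2.49 and 3.73, and its 5-7 and 7-9 cm means of 1.84 ± 0.19 and 1.76 ± 0.21 stood beside a 2-4 cm mean of 1.95 ± 0.14. The protein kinase gene AT1G09440 differed by -1.17 ± 0.32 (SE) and AT3G01430 by -0.78 ± 0.22 in 5-7 cm, and AT4G23670 by -1.37 ± 0.29 in 7-9 cm.

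Of the genes that read higher further down, AT1G67020 had the largest positive difference of the 100 in both sections. It read 1.67, 1.76, 1.76 and 1.75 in 3-5 cm, 3.09, 2.9, 3.28 and 3.19 in 5-7 cm and 3.22, 3.34, 3.3 and 3.31 in 7-9 cm. In 0-3 cm it read 0.05, -0.1, -0.2 and -0.07 and in 2-4 cm 0.07, 0.12, 0.37 and 0.46. Arrays of a section lay close together, no lower array overlapped 3-5 cm, and the difference from 3-5 cm was 1.38 ± 0.16 (SE) in 5-7 cm and 1.56 ± 0.16 in 7-9 cm. AT1G66210, a subtilisin-like protease gene, read 1.89, 2.42, 1.69 and 1.09 in 3-5 cm and 2.26, 3.1, 2.53 and 3.53 in 5-7 cm, a difference of 1.09 ± 0.22 (SE), with replicates 1 of 5-7 cm and 2 of 3-5 cm overlapping. AT2G40620, a bZIP transcription factor known as bZIP18, read 1.62, 1.55, 1.57 and 1.56 in 3-5 cm and 2.77, 2.8, 2.22 and 2.65 in 5-7 cm, a difference of 1.04 ± 0.25 (SE) with no overlap. AT1G61740, of the TauE/SafE family of anion transport proteins, differed by 0.74 ± 0.21 (SE) and AT1G03660 by 0.72 ± 0.21.

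A further 8 genes passed the threshold upward in 7-9 cm alone. AT1G78460 read 2.27, 1.71, 1.84 and 2.51 in 3-5 cm and 3.42, 2.98, 3 and 4.31 in 7-9 cm, a difference of 1.34 ± 0.31 (SE) with no overlap. LTI30 (AT3G50970), a dehydrin that protects membranes and proteins when cells lose water, read 2.15, 2.08, 1.93 and 2.06 in 3-5 cm, 2.14, 2.5, 2.14 and 2.27 in 5-7 cm and 3.17, 3.05, 2.3 and 3.11 in 7-9 cm, a difference of 0.85 ± 0.19 (SE) between 7-9 and 3-5 cm. All 4 LTI30 arrays of 7-9 cm lay above all 4 of 3-5 cm. AT4G16190, a papain-type cysteine protease gene, read 1.77, 1.44, 1.66 and 1.56 and 2.42, 2.12, 2.7 and 2.67, a difference of 0.87 ± 0.21 (SE), also with no overlap. The others were AT2G03390, AT2G04795, AT4G35110, the glutaredoxin family gene AT5G13810 and the pseudogene locus AT2G05820, with differences of 0.62 to 0.97. Of 22 alternatives, AT2G03390 missed the threshold under 16, AT5G13810 under 15, AT4G35110 under 13, AT2G05820 under 9 and AT2G04795 under 2.

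**Figure D4:**
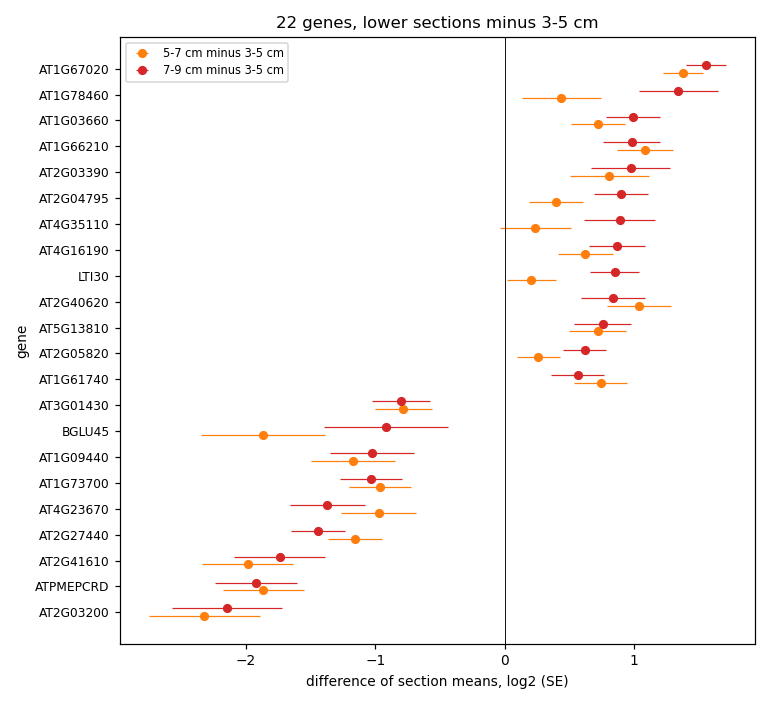
Difference of section means on the log2 scale (x axis, SE bars) for 22 genes (y axis), with 5-7 cm minus 3-5 cm in orange and 7-9 cm minus 3-5 cm in red, a description of values that also chose the genes. The 9 genes with a negative difference include AT2G03200 and ATPMEPCRD at about 2 log2 units in both sections, and AT1G67020 is the highest of the other 13.

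Grouped by product, 55 of the 100 genes were given a role from textbook knowledge after their values were known, so the groups order the account and test nothing. Counts of called genes in a group stand beside 38 of the 100 called in 0-3 cm and 68 in 2-4 cm, where 2.18% and 6.63% of all probes were called higher, and no group is set apart by its count. The wall and phenylpropanoid group had 7 genes. Besides BGLU45, ATPMEPCRD and AT1G80170, it held AT1G27200, with a glycosyltransferase-type domain, and the isoflavone reductase-like genes AT1G75280, AT1G75290 and AT1G75300, which lie side by side. The 3 neighbours read alike, with 3-5 cm means of 2.8 ± 0.17, 2.99 ± 0.21 and 2.89 ± 0.07 and 7-9 cm means of 2.22 ± 1.08, 2.8 ± 0.29 and 2.52 ± 1.01. Shared hybridisation between such close copies was not tested. All 7 wall genes were called in 2-4 cm and 2, BGLU45 and AT1G80170, in 0-3 cm, with a group median of 0.899 in 0-3 cm and 1.186 in 2-4 cm. Of 16 alternatives, the 2-4 cm call was lost under 5 for AT1G75290, 3 for AT1G27200, 2 for BGLU45 and 1 for AT1G75280. The 2-4 cm calls of AT1G75300, ATPMEPCRD and AT1G80170 held under all 16. BGLU46 (AT1G61820), the neighbour of BGLU45 and left out by name, and AT1G57540 were the only 2 of 87 measured neighbouring genes outside the 100 with all 3 lower means at 1 or more. The median 7-9 cm mean of those 87 neighbours was 0.056.

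The kinase and calmodulin-binding group had 5 genes, and all 5 were among the 68 called in 2-4 cm. Next to AT1G03740 and AT1G09440 it held the protein kinase genes AT1G56720 and AT2G40120 and IQD28 (AT1G14380), of a family that binds calmodulin through IQ motifs. AT1G56720 had means of 1.47 ± 0.24 in 2-4 cm, 2.43 ± 0.18 in 3-5 cm and 1.89 ± 0.25 in 7-9 cm. AT2G40120 had 1.6 ± 0.17, 2.4 ± 0.18 and 1.71 ± 0.27, and IQD28 had 1.22 ± 0.07, 1.93 ± 0.33 and 1.66 ± 0.22.

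None of the 6 transcription and chromatin genes was called in 0-3 cm, and AT1G21000, HIS1-3 and TCP15 were called in 2-4 cm. Of 16 alternatives, the HIS1-3 call was lost under 9, that of AT1G21000 under 3 and that of TCP15 under 1. Of the 6, 3 belong to the PLATZ family of plant-specific zinc-binding proteins. AT1G21000 read 3.08, 2.88, 3.54 and 3.46 in 3-5 cm and 4.23, 2.24, 3.5 and 3.65 in 7-9 cm, and its dye term was called, at -0.77 (adjusted p = 0.00711). AT1G76590 read 2.23, 2.44, 2.72 and 1.87 and 3.1, 3.63, 2.4 and 2.99, while AT1G32700 read 2.01, 2.41, 2.51 and 1.36 and 1.45, 3.34, 1 and 0.42, from near the reference to 3.34. HIS1-3 (AT2G18050), the linker histone that is induced by drought and abscisic acid, read 1.74, 1.46, 2.01 and 2.34 in 3-5 cm, 3.11, 2, 1.28 and 1.69 in 5-7 cm and 3.57, 3.1, 2.3 and 2.63 in 7-9 cm. The difference of 7-9 cm from 3-5 cm was 1.01 ± 0.33 (SE). TCP15 (AT1G69690) is a TCP factor that acts in cell proliferation and growth. It had low spread in 3-5 cm, at 1.61, 1.49, 1.62 and 1.61, and in 2-4 cm, at 0.62, 0.65, 0.53 and 0.53. In 7-9 cm it was less even, at 2.55, 1.28, 2.1 and 2.02. Its second probe did not read like the first.

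The proteolysis and autophagy group had 9 genes, of which 6 were called in 0-3 cm and 5 in 2-4 cm. Proteases were AT2G03200, AT4G16190 and the subtilisin-like pair ATSBT5.2 and AT1G66210. Genes of the ubiquitin pathway were ATL8 and the RING-domain genes AT1G26800 and AT1G72220, together with the kelch-repeat F-box gene AT1G23390. AT1G72220 read 1.58, 2.35, 6.18 and 3.62 in 3-5 cm and 1.36, 2.66, 1.1 and 2.15 in 7-9 cm, the widest 3-5 cm spread of the group. ATG8H (AT3G06420), a ubiquitin-like protein that is joined to the membrane of forming autophagosomes, read 0.62, 0.72, 0.2 and 0.7 in 0-3 cm, 0.8, 0.46, 0.86 and 1.01 in 2-4 cm and 2.61, 1.76, 2.45 and 2.4 in 3-5 cm. It was called in both upper sections, at 0.56 ± 0.15 (SE, adjusted p = 0.0357) and 0.78 ± 0.15 (adjusted p = 0.00113), and its 3-5 cm arrays all lay above them.

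Of the 13 genes of metabolic enzymes, 3 were called in 0-3 cm and 8 in 2-4 cm. AT4G33150 encodes the bifunctional enzyme that starts lysine breakdown, and it read 1.56, 1.4, 0.6 and 1.17 in 0-3 cm, 1.25, 1.12, 1.55 and 1.23 in 2-4 cm and 2.78, 2.56, 2.83 and 2.68 in 3-5 cm. It was called in both upper sections, at 1.18 ± 0.18 (SE, adjusted p = 0.000334) and 1.29 ± 0.18 (adjusted p = 4.59e-05). IVD (AT3G45300), the isovaleryl-CoA dehydrogenase of leucine breakdown, read 0.28, 0.16, -0.1 and 0.54 in 0-3 cm, 0.79, 0.97, 0.83 and 0.25 in 2-4 cm and 2.35, 2.14, 2.55 and 2.49 in 3-5 cm, and was called in 2-4 cm alone, at 0.71 ± 0.18 (SE, adjusted p = 0.00968). FDH (AT5G14780), a mitochondrial formate dehydrogenase, read -0.01, 0.76, 1.3 and 1.39 in 0-3 cm and 0.56, -0.03, 0.79 and -0.34 in 2-4 cm, an overlap between the sections. APL3 (AT4G39210), a large subunit of the ADP-glucose pyrophosphorylase that feeds starch synthesis, read 2.07, 1.83, 2.37 and 1.53 in 3-5 cm, 2.83, 2, 1.93 and 1.26 in 5-7 cm and 2.49, 2.28, 2.4 and 1.19 in 7-9 cm and was not called nearer the tip. In the same group were the gluconokinase gene AT2G16790, the alliinase-family gene AT1G34060, the terpene synthase gene AT1G33750, the hydrolase gene AT3G51000 and the short-chain dehydrogenase gene AT5G50130. AT5G50130 was among the least even, with 2.59, 3.1, -0.19 and 1.35 in 5-7 cm and 0.73, 3.85, 1.1 and 1.09 in 7-9 cm, and its dye term was called at 1.2 (adjusted p = 0.0231). The dye term was called for 9 of the 100 genes, where 16.2% of all probes were called.

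The 6 transporter genes were AT1G72120, AT1G73700, AT4G36850, AT1G61740, its family member AT1G11540 and AT3G05165, a sugar transporter gene of the ERD6-like type. AT1G61740 and AT1G11540 read similarly, with 0-3 cm means of 1.16 ± 0.32 and 0.95 ± 0.37, and 7-9 cm means of 2.71 ± 0.27 and 2.82 ± 0.09. AT1G72120 went from -0.59 ± 0.58 in 0-3 cm through 0.13 ± 0.3 in 2-4 cm to 1.81 ± 0.12 in 3-5 cm, the lowest starting point of the 100 genes. The 6 stress-related genes were LTI30, AT1G78780, AT4G23670, the universal stress protein gene AT3G62550, the small heat shock protein gene AT2G19310 and AILP1 (AT5G19140). AT3G62550 read -0.26, 0.06, 0.7 and 0.76 in 0-3 cm and 2.9, 3.03, 2.99 and 2.76 in 3-5 cm, without overlap, and was not called in the upper sections. ATMAP65-6 (AT2G01910), of a family that bundles microtubules, read 0.56, 0.9, 0.8 and 0.98 in 0-3 cm, 1.13, 1.06, 1.09 and 1.46 in 2-4 cm and 1.67, 1.96, 1.9 and 2.92 in 3-5 cm. AT3G22230, a ribosomal protein L27 gene, had means of 0.3 ± 0.2, 1.16 ± 0.38 and 2.43 ± 0.2 in the same sections. Both were called in 2-4 cm, and ATMAP65-6 also in 0-3 cm.

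No role is given here for the other 45 genes, of which 14 were called in 0-3 cm and 30 in 2-4 cm. Those already described are AT1G64370, AT3G55600, AT2G31930, AT2G37750, AT1G19530, AT5G44580, AT2G27440, AT1G78460, AT3G01430, AT2G41610, AT4G35110, AT2G25910, AT1G03660, AT1G67020, AT2G21560, AT2G05820, AT2G03390, AT2G04795, AT5G04830, AT1G27290 and AT1G13470. AT2G23360 was among the highest of the rest, with 2.19, 1.7, 2.66 and 2.39 in 2-4 cm and 3.5, 3.34, 3.84 and 3.72 in 3-5 cm, called in both upper sections. AT5G18130 read 0.41, 0.05, 0.53 and -0.15 in 2-4 cm and 2.66, 2.43, 2.12 and 2.42 in 3-5 cm and AT3G03870 read 0.34, -0.16, 0.11 and 0.2 and 2.17, 2.46, 2.61 and 1.84. Neither was called in the upper sections. AT5G61340 read 2.48, 2.88, 3.88 and 3.23 in 3-5 cm and 3.2, 1.7, 0.35 and 1.49 in 5-7 cm. AT1G07040, AT2G15960, AT1G72510, AT4G32020 and AT1G01640 were called in both upper sections, with 3-5 cm means of 1.54 to 2.14. AT1G07120, AT1G49470, AT5G03230, AT3G14910, AT1G67860 and AT1G20880 were called in 2-4 cm alone, with 3-5 cm means of 1.60 to 3.30. AT3G19550, AT3G27210, AT3G20300, AT1G49032, AT1G80180, AT1G06330, AT1G10140, AT5G45350 and AT1G23710 were called in neither, with 0-3 cm means of 0.18 to 0.66 and 3-5 cm means of 1.54 to 2.49. AT1G80180 is the neighbour of AT1G80170 but, unlike it, was near the reference in 0-3 cm, at 0.18 ± 0.32.

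Related genes outside the 100 were read from lists chosen with these values known. Of 15 listed genes of branched-chain amino acid and lysine breakdown, 8 had a probe, and IVD and AT4G33150 were among the 100 and are left out of the counts. Of the other 6, 5 were called higher in 3-5 cm, 6 in 5-7 cm and 4 in 7-9 cm and none lower, where 19.9%, 19.7% and 21.7% of all probes were called higher. Their median was 0.852, 0.507 and 0.665 in the lower sections, against 0.087 in 0-3 cm and -0.079 in 2-4 cm and medians between -0.017 and 0.016 over all probes. MCCA (AT1G03090) and MCCB (AT4G34030), the subunits of the methylcrotonyl-CoA carboxylase that follows IVD in leucine breakdown, were at 1.28 ± 0.13 and 1.15 ± 0.17 (SE) in 3-5 cm. AT2G26800, the hydroxymethylglutaryl-CoA lyase that ends the same route, was at 1.55 ± 0.22. In 7-9 cm MCCA and AT2G26800 were at 1.44 ± 0.13 and 1.47 ± 0.22, and MCCB was at 0.59 ± 0.17. ETFQO, ETFALPHA and ETFBETA, which carry electrons from IVD to the respiratory chain, reached at most 0.74 ± 0.12.

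Of 9 listed ATG8 genes 3 had a probe, of which ATG8H was chosen by the limit and is not counted. The other 2 were called higher in 3-5, 5-7 and 7-9 cm, where 19.9%, 19.7% and 21.7% of all probes were. ATG8D (AT2G05630) was at 0.9 ± 0.19 (SE) in 3-5 cm and 1.11 ± 0.19 in 7-9 cm, and ATG8E (AT2G45170) at 1.08 ± 0.17 and 1.59 ± 0.17, so both lay under the limit of 1.5 in 3-5 cm. Of 11 listed PLATZ genes 5 had a probe, and 3 of these were chosen by the limit. Of the other 2, 1 was called higher in each lower section, AT2G27930 at 0.69 ± 0.18 (SE) in 3-5 cm and 1.44 ± 0.18 in 7-9 cm. AT1G43000 was not called, at 0.03 ± 0.21 in 3-5 cm. APL4 (AT2G21590), the other ADP-glucose pyrophosphorylase large subunit with a probe, was called in 5-7 cm at 0.59 ± 0.2 and in 7-9 cm at 0.93 ± 0.2. The dehydration, cold and abscisic acid list held 26 genes, of which 9 had a probe and LTI30 and HIS1-3 were chosen by the limit. Of the other 7, in 3-5 cm 1 was called higher and 2 lower, where 19.9% and 20.2% of all probes were, and the median was -0.262. COR47 was called higher, at 0.54 ± 0.17 (SE) in 3-5 cm, while DI21 (AT4G15910) at -2.76 ± 0.19 and LEA4-5 (AT5G06760) at -0.92 ± 0.19 were called lower. Among 24 secondary wall genes and 12 pectin methylesterase genes 1 each had a probe, and none of 13 monolignol genes did. These were GUT2 (AT1G27440), a xylan synthesis gene that was not called in any section, and ATPMEPCRD.

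**Figure D5:**
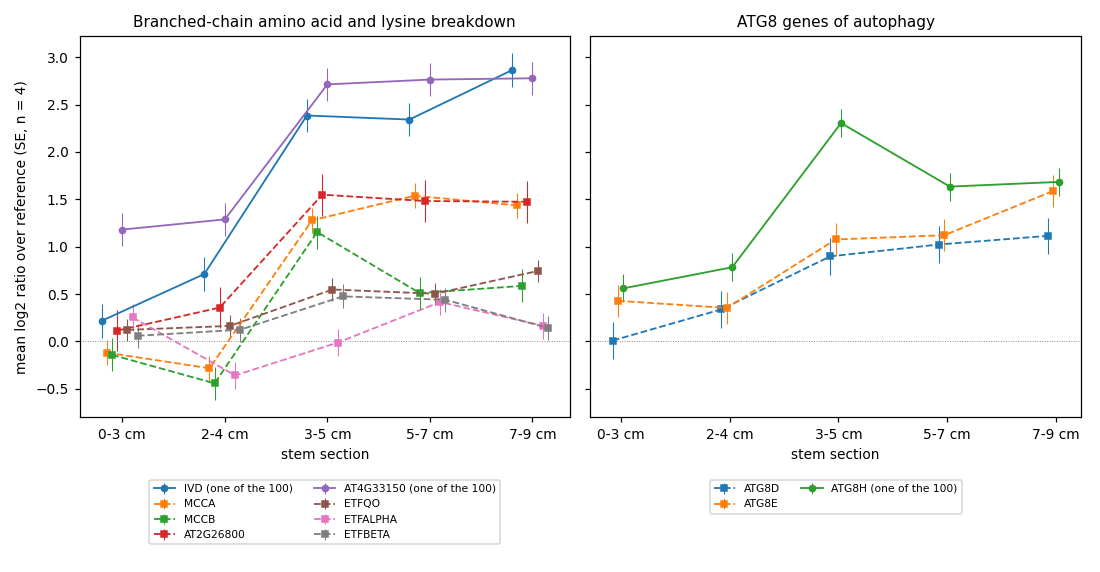
Mean log2 ratio over the reference (y axis, SE bars, n = 4) by stem section (x axis) for the 8 measured genes of branched-chain amino acid and lysine breakdown (left) and the 3 measured ATG8 genes (right), with solid lines for genes among the 100 and dashed lines for the others. IVD and AT4G33150 lie above 2 from 3-5 cm down, MCCA and AT2G26800 between 1.28 and 1.55, and the 3 ETF genes under 1, and ATG8D and ATG8E, outside the 100, have higher means from 3-5 cm down than in 0-3 and 2-4 cm.

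For the 3 leading genes, the named genes outside the 100 with the most similar course over the 5 section means were found by Pearson's r, a description over 5 points that share the reference and carry no p. For AT1G03740 they were AT2G43540, AT2G13720 and AT2G16530, with r of 0.9993, 0.9993 and 0.9991 and 3-5 cm means of 1.10, 1.78 and 1.41. For AT1G64370 they were AT1G24510, AT1G10800 and PUB24 (AT3G11840), with r of 0.999, 0.9978 and 0.9976 and 5-7 cm means of 1.04, 1.57 and 1.60. For AT3G55600 they were AT1G26620, AT1G23960 and AT1G22060, with r of 0.9983, 0.9979 and 0.9978 and 7-9 cm means of 0.92, 0.60 and 0.87. The amplitudes of these neighbours in shape were well under those of the leading genes.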

How the data were processed

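RNA of 5 stem sections was compared with RNA of 1 reference section on 20 spotted two-colour arrays. The deposited values are log ratios per spot, taken here as log2 of section over reference in the order of the titles. Per the labels a ScanArray Express scanner was used by the authors. How they corrected background, normalized the ratios and took the logarithm, and its base, is not given in the sources used here. Without single-channel signals, how far a spot stood above background is unknown, and the number of arrays limits the precision.

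Groups came from the array titles and dyes from the source names. Of 28800 spots, 25739 were measured, and the 25720 probes with a value on 3 or more arrays in every section were fitted with limma 3.58.1 in R 4.3.3 (lmFit and eBayes, 5 section means and a dye term, all arrays sharing 1 spread), with Benjamini-Hochberg adjustment over all of them. Differences among the 3-5, 5-7 and 7-9 cm sections, first planned as tests, are given for the 100 genes as descriptions, because those values chose them, and list counts leave the chosen genes out. A gene was called at an adjusted p under 0.05, and the fit was tested on simulated data. Gene names come from the platform annotation, which gave 8338 probes 1 gene and 181 several, of which the former alone were named. RefSeq TAIR10.1 matched 8302 of them and served for names and gene order. The other 3061 spots were blank.

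The 100 genes, their role groups and all lists were chosen with earlier results of these data known. All 100 are named. Array values are printed for the 12 genes with the highest lowest section mean and for those that the comparisons turn on, a narrower choice than the one first written, which had asked for every called gene, and the heat map holds the rest. The 4 genes just outside the limit were named once. For likeness, the 3 genes outside the 100 with the highest Pearson r were taken for each of 3 leading genes. Alternatives covered centring, scaling, array weights, the dye term, the arrays fitted, print blocks, scanner setting, a replicate block and single arrays left out. Promoter motifs were not searched.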

Additional observations from a re-analysis of the deposited data

Results flagged for a closer look

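Among the 12 leading genes, 60 groups of 4 arrays were examined for a single array far from the other 3, and 7 were found, where chance gives about 1 in 20 groups. In each, the gap to the nearest array took up more of the range of the 4 than Dixon's 95% critical value allows. AT1G03740 read 3.26 on 7-9 cm replicate 4, below the others. AT3G55600 read 2.721 on 5-7 cm replicate 3, AT2G37750 read 3.351 on 3-5 cm replicate 1 and AT2G39400 read 2.388 on 3-5 cm replicate 2, each below the others. AT1G64370 read 5.418 on 3-5 cm replicate 4 and AT1G78780 read 3.646 on 3-5 cm replicate 1, each above the others, which for AT1G78780 lay within 3.29 to 3.31. AT1G75290 read -1.284 on 2-4 cm replicate 2, below the reference, where the other 3 arrays lay above it. Of the 7 arrays, 4 were of 3-5 cm, from 3 different replicates, and causes were not tested.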

How the results depend on the processing

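In 0-3 cm, in 2-4 cm and between them no called gene reversed its direction: over 109 pairs of gene and comparison and 1756 recomputed values, 1555 stayed called and 201 lost the call. Counts within the lower stem rest on values that chose the genes and are listed as descriptions. All 38 calls in 0-3 cm and all 68 in 2-4 cm kept their sign, and 16 and 39 of them were called under all 16 alternatives. With arrays centred and scaled, calls numbered 64 in 0-3 cm, 7 in 2-4 against 0-3 cm, 7 in 5-7 against 3-5 cm and 8 in 7-9 against 3-5 cm, and 63 genes met the limit of 1.5. Those 8 were 1 higher and 7 lower. With array weights calls numbered 7 in 2-4 against 0-3 cm, 22 in 5-7 against 3-5 cm and 29 in 7-9 against 3-5 cm. Fitting only the compared arrays gave 66 in 0-3 cm and 1 in 2-4 against 0-3 cm. Subtracting print block medians gave 21 in 5-7 against 3-5 cm. Leaving out the dye term gave 1 in 2-4 against 0-3 cm, and leaving out the 3 arrays with conflicting dyes gave 12 in 7-9 against 3-5 cm. Alternatives chosen after seeing the data gave 1 in 2-4 against 0-3 cm without the 3 arrays deposited in steps of 0.1, and 7 in 5-7 and 8 in 7-9 against 3-5 cm with the arrays at 62 and 60 alone. With single arrays left out, calls ranged from 17 to 37 in 0-3 cm, 45 to 59 in 2-4 cm, 1 to 3 in 2-4 against 0-3 cm, 7 to 18 in 5-7 against 3-5 cm and 15 to 24 in 7-9 against 3-5 cm, and 92 to 109 genes met the limit. The causes were not tested. Same-numbered arrays correlated in their deviations from the section means from -0.26 to 0.4546 (median 0.0974, 40 pairs) and arrays of different numbers from -0.389 to 0.3196 (median -0.0459, 120 pairs), and 9 of 20 arrays correlated best with their own number. Not every pair was positive and the labels tie the numbers to no plant or day, so the arrays were not treated as paired. The number went with the dye in 0-3, 2-4 and 3-5 cm and with the scanner setting in 5-7 and 7-9 cm. A replicate block gave 1 call in 2-4 against 0-3 cm, and 39, 69, 14 and 19 in 0-3, 2-4, 5-7 and 7-9 cm as compared above. Counts over all probes ranged widely, from 336 to 2821 in 0-3 cm, from 1994 to 6200 in 2-4 cm, from 31 to 476 between them, from 606 to 2086 in 5-7 and from 864 to 3173 in 7-9 against 3-5 cm.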
